A study of Drosophila melanogaster with 14 samples.

Results

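The transcriptome described here is that of wildtype wing imaginal discs of Drosophila melanogaster, given by 3 RNA-seq libraries out of the 14 samples of the series. The libraries were chosen by their labels alone, as the RNA samples of genotype yw, the strain used as wildtype. Larvae were grown at 25 degrees C until they wandered late in the third instar, and RNA of dissected discs was made into directional libraries. The series also holds 3 RNA libraries of nub[1] discs in the yw background, 4 ATAC-seq samples and 4 samples of a ChIP-seq of rn-GFP discs with their inputs, none of which enters the results. Nothing in the labels says how many larvae or discs went into a library, whether the 3 replicates came from separate crosses, what the sex of the larvae was, or which alleles of y and w the strain carries. Spread among the 3 libraries may therefore be technical in part, and the 3 libraries form 1 group, so no test between groups was made.

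The wing disc is a sac of epithelium set aside in the embryo, which grows during larval life and forms the adult wing blade, the hinge and the notum, the dorsal thorax. Selector transcription factors divide it into anterior and posterior, dorsal and ventral, and pouch, hinge and notum territories. The ligands Hedgehog, made in posterior cells, and Dpp and Wingless, made along boundaries between territories, pattern the tissue. Muscle precursors and tracheal branches lie on the disc and are taken along when it is dissected. At the wandering stage a pulse of the steroid hormone ecdysone starts metamorphosis.

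Total counts were 61981014, 58434785 and 82407049 in replicates 1 to 3. At this depth, 1 CPM (counts scaled to 1000000 reads) was 62.2, 57.9 and 82.8 reads in the same order. CPM were scaled between libraries by the trimmed mean of M values (TMM), and values are given for replicates 1, 2 and 3 in that order, or as mean ± SD (n = 3). They count reads, not molecules, and are not divided by transcript length, so a long transcript gives more reads than a short one at the same number of molecules. A difference in CPM between 2 genes is therefore not a difference in molecules. In such dissected tissue, fewer cells that express a gene and less RNA per cell cannot be told apart. Gene spans of 3857 of the 7483 genes detected, 51.5%, overlap another annotated gene, and reads of overlapping genes cannot be separated because the sources used here do not state whether counting used the strand.

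Of 17807 gene IDs, 7483 had at least 1 CPM in each of the 3 libraries, 42% of all IDs, and are called detected below. Among protein-coding genes 7217 of 13846 were detected, 52.1%. Counts of detected members of the gene lists below stand beside these shares. A further 187 genes reached 1 CPM in only some of the libraries, and 4874 had no read in any. Levels fell into a low and a high set of genes, with 5347 genes that had reads but averaged under 1 CPM, 1339 from 1 to 10 CPM, 4087 from 10 to 100 CPM, 2016 from 100 to 1000 CPM and 144 at 1000 CPM or over. The trough lay near 1 to 10 CPM, as the histogram of levels shows.

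**Figure D1:**
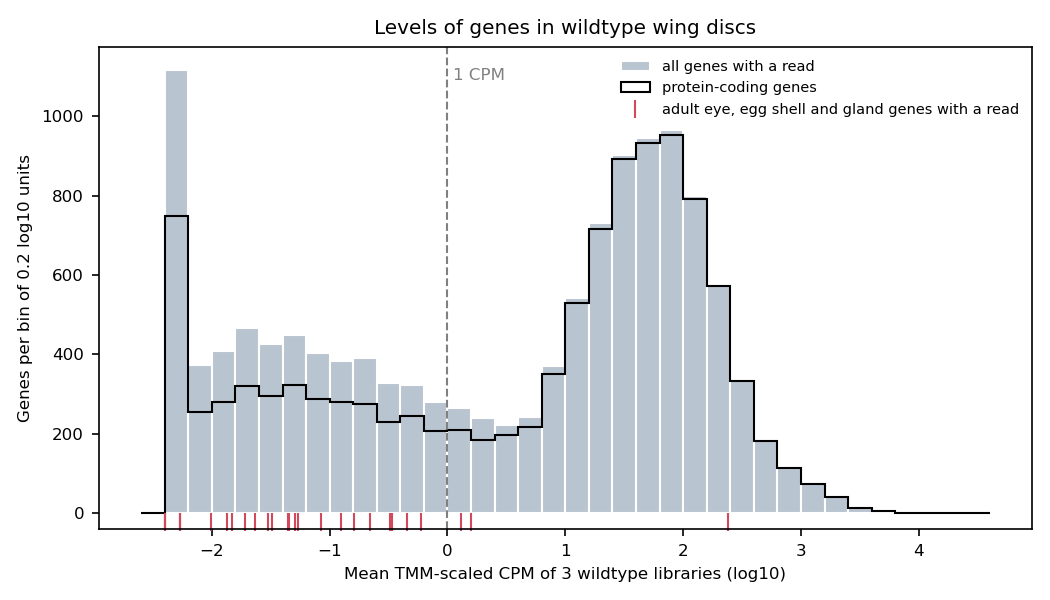
Histogram of the mean TMM-scaled CPM of the 3 wildtype libraries, on a log10 axis, for all genes with a read (grey) and for protein-coding genes (black outline), with genes of adult eye, egg shell, gland and chemosensory organs as red ticks. Levels fall into a low and a high mode with a trough between 1 and 10 CPM, and all but 3 of the 46 adult genes lie under 1 CPM or have no read.

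Genes whose products belong to the adult eye, egg shell, yolk, accessory gland or chemosensory organs gave a background level. Of 46 such genes, 18 had no read, 25 averaged under 1 CPM and 3 were detected. Absence of reads over the group allows up to 0.0148 CPM by a floor of 3 counts. The 3 exceptions were norpA, the phospholipase C of phototransduction, at 241, 238 and 242 CPM, the arrestin gene Arr2 at 1.59, 1.69 and 1.47 CPM and the rhodopsin gene Rh5 at 1.38, 1.45 and 1.11 CPM. Both norpA and Arr2 overlap another annotated gene. Of 27 germline and testis genes, 10 had no read and 2 were detected, bgcn at 1.48, 1.57 and 1.63 CPM and piwi, a gene of the piRNA pathway, at 1.57, 1.54 and 1.40 CPM. None of 18 antimicrobial peptide and immune recognition genes was detected, the largest mean being that of Def (0.641 CPM), which overlaps magu. Of 11 gut and Malpighian tubule genes only LManII, a lysosomal alpha-mannosidase gene, was detected (47.9, 45.9 and 35.3 CPM), while the digestive protease genes Jon25Bi and betaTry had no read. Most of the genes known from tissues outside the disc thus lay under 1 CPM.

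A large share of the reads fell on few genes. The 100 most abundant genes held 25.7, 26.8 and 26.0% of the reads in the 3 libraries, 452 genes held 50% of them and 3206 genes held 90%. At this depth the counting error of such a share is small, with an exact binomial 95% interval of 25.67 to 25.69% in replicate 1, and the libraries differed by more than that. Ribosomal protein genes made up 51 of the 100, translation factors 7 and mitochondrial genes 5.

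The most abundant nuclear gene by reads was eEF1alpha1, which encodes the elongation factor that brings aminoacyl-tRNA to the ribosome (dm6 chromosome arm 2R, 11891135 to 11895762), at 12140.1, 12236 and 12440.4 CPM. It was followed by the cytoplasmic actin gene Act5C (7081, 7245 and 6914 CPM), the translocation factor gene eEF2 (5849.7, 5869.7 and 6093 CPM) and the poly(A)-binding protein gene pAbp (5796, 5661 and 5648 CPM). Next in the order of reads were the constitutive chaperone gene Hsc70-4 (5201 ± 87.1 CPM), the tubulin genes alphaTub84B (4867 ± 188 CPM) and betaTub56D (4663 ± 207 CPM), the ecdysone-inducible gene ImpE2 (4467 ± 669 CPM), the Hsp90 gene Hsp83 (3699 ± 151 CPM) and the chromatin decondensation gene Df31 (3638 ± 57.8 CPM). Among the 20 most abundant genes, 2 are regulators, the ecdysone-induced zinc finger gene br (2863, 2851 and 2674 CPM) and the RNA-binding protein gene Syp (2862, 2786 and 2640.4 CPM). The replicates lay close together for each of these except ImpE2, which was lowest in replicate 3 (4698, 4989.9 and 3713 CPM).

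Dividing by gene span, introns included, gives a lower bound on reads per kilobase of transcript and favours compact genes. By this measure RpL41 came first (2R, 24903416 to 24903935; 5304 CPM per kilobase of span), followed by lncRNA:CR40469, eEF1alpha1, ImpE2, the small heat shock gene Hsp23 and alphaTub84B, and 14 of the first 20 were ribosomal protein genes. RpL41 overlaps the sodium channel gene NaCP60E.

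Cytoplasmic ribosomal protein genes were detected for 85 of 91 names, 83 of them at a mean of 100 CPM or over, and together they held 120078, 132977 and 124356 CPM, or 12.6% of the reads on average. Their sum was highest in replicate 2 and lowest in replicate 1. RpL3 had 3542, 3655 and 3639 CPM and sta, the gene of the small-subunit protein SA, 2806, 3220.2 and 2975 CPM. The paralogs known from the germline or testis stood apart, RpS5b at 0.418, 0.535 and 0.423 CPM beside 1990.2, 2124 and 2056 CPM of RpS5a, RpL22-like at 0.755, 0.708 and 0.858 CPM beside 722, 722 and 727 CPM of RpL22, and RpS19b at 1.41, 1.33 and 1.12 CPM beside 1351, 1519 and 1395 CPM of RpS19a. RpL37-2 and RpS28a averaged under 0.05 CPM. RpS14a and RpS14b are near-identical copies, and their separate values (averages of 773 and 275 CPM) are uncertain.

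All 18 translation factor genes were detected, from eEF1alpha2 at 94.8, 92.4 and 67.2 CPM, the paralog best known from neurons and muscle, to eEF1alpha1. All 25 genes of glycolysis and oxidative phosphorylation were detected too. The adenine nucleotide carrier gene sesB had 1327, 1395 and 1400.5 CPM, the ATP synthase genes ATPsynbeta and blw 1214 ± 24.98 and 1122 ± 14.7 CPM, and Gapdh2 595 ± 44.2 CPM. Ldh, whose enzyme makes lactate, had 12.1, 13.9 and 11.3 CPM.

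Cytoskeletal genes were detected for 17 of 23 names. Among actins, the cytoplasmic Act5C and Act42A had averages of 7079.9 and 1711 CPM, the muscle actins Act57B and Act87E averages of 32.3 and 21.1 CPM, and the flight and other muscle actins Act88F and Act79B averages of 0.931 and 0.164 CPM. Actin coding regions are alike, so reads may be shared among them. Of tubulin genes, alphaTub84D had 260.4 CPM, the ovary gene alphaTub67C 0.633 CPM, and the testis gene betaTub85D no read. Profilin (chic), Moesin (Moe) and cofilin (tsr) genes had averages of 1185, 948 and 905 CPM.

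Mitochondrial transcripts held 4.75, 5.06 and 4.93% of the reads. Their genes have no introns, so the gene gives the length and levels are stated per kilobase of gene. How reads that map to several places or to overlapping genes were counted is not stated. The values are therefore reads per kilobase, and their ratios need not be ratios of transcripts. The large ribosomal RNA gene mt:lrRNA had 25653 ± 1016 CPM per kilobase, mt:CoIII 3762 ± 132, mt:CoI 3639 ± 136, mt:CoII 2045 ± 146, mt:ATPase6 1713 ± 57.1 and mt:Cyt-b 1591 ± 41.9. Complex I genes lay lower, with mt:ND3 at 697 ± 71.6, mt:ND1 at 529 ± 35.8, mt:ND4 at 483 ± 18.5 and mt:ND5 at 467 ± 15.1 CPM per kilobase. The lowest of the protein genes were mt:ND2 (19.3 ± 1.66), mt:ND6 (19.02 ± 3.71), mt:ND4L (11.8 ± 1.23) and mt:ATPase8 (1.39 ± 0.428), of which mt:ND4L and mt:ATPase8 overlap a neighbouring gene, so that their values are uncertain. The small ribosomal RNA gene mt:srRNA had 9.54 ± 2.09 CPM per kilobase, lowest in replicate 1 (6.12, 9.32 and 7.04 CPM).

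Non-coding nuclear genes held few reads, 0.482, 0.444 and 0.418% for long non-coding RNAs, of which 100 of 1960 were detected, and 0.0347, 0.0334 and 0.0332% for antisense RNAs, of which 45 of 490 were detected. The leading long non-coding RNA was lncRNA:CR42862 (1879.6, 1842 and 1814 CPM). The dosage compensation RNA lncRNA:roX1 had 809, 291 and 260.0 CPM and the stress RNA lncRNA:Hsromega 95.6, 87.1 and 85.1 CPM. None of the 109 nuclear ribosomal RNA genes had a read, nor did the replication-dependent histone genes His1:CG31617, His2A:CG31618, His3:CG31613 and His4:CG31611, whose gene copies are near-identical and whose transcripts lack poly(A) tails. Histone genes of the polyadenylated kind were detected, with His3.3B at 1731 ± 49.95 CPM, His4r at 666 ± 42.1 CPM and His2Av at 623 ± 21.8 CPM.

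Regional regulators of the wing disc were detected without exception among those listed, 14 of 14 for the pouch, 18 of 18 for the hinge and 12 of 12 for the notum. The share was 42% for all gene IDs and 52.1% for protein-coding genes. These lists hold genes known from the wing disc and were chosen with earlier results of these data known. All 33 cell cycle genes and all 22 Polycomb and trithorax group genes were detected too. Full detection is therefore no independent check of the tissue label.

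In the pouch list, sd, which encodes the TEAD partner of the wing selector Vestigial, had 576, 580.5 and 591 CPM (dm6 X, 15804370 to 15827682), and vg, the selector itself, 264, 261 and 258 CPM. The POU domain gene nub had 339.9, 319 and 318 CPM and its paralog pdm2 56.1, 56.6 and 56.7 CPM, and both overlap another gene (Ref2 and Nepl7). The zinc finger gene rn, which marks the distal pouch, had 269, 252 and 263 CPM. Replicates of each of these differed by less than 1.1-fold.

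The Dpp targets of the pouch, salm, salr and bi (optomotor-blind), had averages of 223, 269 and 257 CPM. The Golgi kinase gene fj had 413, 399.6 and 403 CPM, the distal genes Dll, dve and nab averages of 132, 114 and 96.9 CPM, the intervein factor bs 132, 133 and 124 CPM and the central intervein factor kn 56.7, 54.6 and 52.4 CPM. Across the 14 pouch genes the ratio of the highest to the lowest library had a median of 1.07, and the summed level was 3222, 3129 and 3154 CPM.

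In the hinge list, hth, the homeobox cofactor that brings Extradenticle into the nucleus, had 1369, 1301 and 1245 CPM, its partner exd 488, 472 and 489.6 CPM, the cadherin gene ds 1152, 1062 and 1162 CPM and the zinc finger homeobox gene zfh2 840.4, 777 and 829.6 CPM. The paralogs tsh and tio, which encode zinc finger factors of the proximal disc, had 353, 347 and 346 CPM for tsh and 89.3, 85.2 and 87.7 CPM for tio. Sox15, a gene of the ring around the pouch, had 142, 139 and 149 CPM. The odd-skipped family members bowl, drm, sob and odd had averages of 650.3, 143, 50.9 and 10.2 CPM, and the neighbouring T-box genes Doc1, Doc2 and Doc3 averages of 42.05, 31.5 and 30.3 CPM. The Unpaired ligand gene upd1, which acts in the hinge, was lowest of this list by reads, at 6.54, 6.51 and 6.52 CPM.

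Of the notum factors, the Iroquois complex genes mirr, caup and ara had 203, 196 and 191 CPM for mirr, 171, 163 and 160.0 CPM for caup, and 143, 133 and 133 CPM for ara. The Pax genes eyg and toe had 78.5, 79.5 and 76.98 CPM for eyg and 47.5, 49.01 and 48.8 CPM for toe, the GATA factor gene pnr of the medial notum 54.8, 55.3 and 54.2 CPM, its cofactor gene ush 78.7, 76.3 and 73.7 CPM and the LIM homeobox gene tup 37.8, 39.1 and 38.7 CPM. The Bar genes B-H1 and B-H2, which mark the prescutum, had averages of 10.1 and 9.88 CPM.

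**Figure D2:**
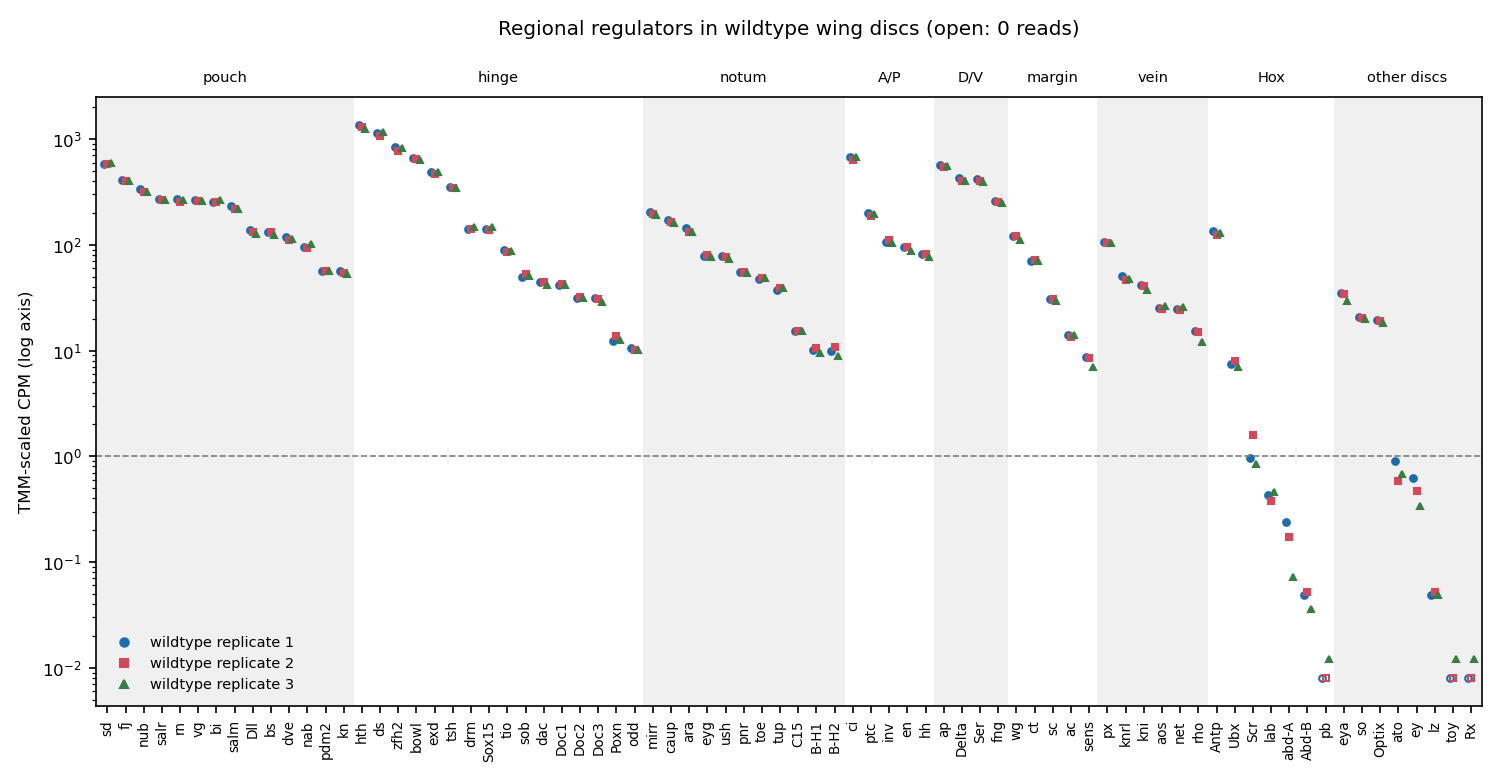
TMM-scaled CPM (log axis) of regional regulators in each of the 3 wildtype libraries, grouped by the region or axis they are known from; open symbols at the bottom stand for 0 reads and the dashed line for 1 CPM. Symbols of the 3 libraries nearly coincide for wing genes, and the Hox genes other than Antp and Ubx and the eye genes ey, toy, ato, lz and Rx lie near or under 1 CPM.

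Both compartment axes were represented. The posterior selector en and its paralog inv had 96.3, 94.5 and 86.98 CPM for en and 106, 110.2 and 104 CPM for inv, the posterior ligand gene hh 81.8, 81.4 and 77.3 CPM, the anterior transducer gene ci 681, 633 and 681 CPM and the Hedgehog receptor gene ptc 202, 189 and 194 CPM. The dorsal selector ap had 563, 549 and 558 CPM, its cofactor gene Chi 97.4, 101 and 97.96 CPM, the LMO gene Bx, which limits Apterous activity, 75.4, 71.4 and 80.2 CPM, and the Notch glycosyltransferase gene fng 258, 252 and 249 CPM. The dorsal leucine-rich repeat genes trn and caps had 206 ± 7.11 and 131 ± 4.38 CPM.

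Margin genes were detected for 10 of 10 names and vein genes for 8 of 8. The margin factor gene ct had 70.8, 71.2 and 70.5 CPM, and the proneural genes sc and ac 30.6, 30.9 and 29.7 CPM for sc and 14.1, 13.5 and 13.98 CPM for ac. sens, which marks sensory organ precursors and margin bristle cells, had 8.77, 8.49 and 6.92 CPM. For the veins, the paralogs kni and knrl had 41.3, 40.7 and 37.3 CPM for kni and 50.6, 46.3 and 47.2 CPM for knrl, net 24.7, 24.1 and 25.8 CPM, px 107, 104 and 104 CPM and rho, the protease that releases EGFR ligand in vein cells, 15.4, 15.01 and 12.1 CPM, where replicate 3 was lowest.

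Of 12 genes of the Hox complexes, 2 were detected (16.7%), against 42% of all gene IDs and 52.1% of protein-coding genes. Antp, the Hox gene of the wing-bearing segment, had 135, 125 and 130.1 CPM and Ubx, which specifies the haltere and is also made in the peripodial epithelium of the wing disc, 7.54, 8.04 and 7.01 CPM. Scr, of the first thoracic segment, had 0.964, 1.59 and 0.846 CPM and passed 1 CPM in replicate 2 only. The abdominal gene Abd-B had 3, 3 and 3 reads, pb had 0, 0 and 1 reads, and Dfd, bcd, zen, zen2 and ftz had none. Each of Antp, Ubx and Scr overlaps another annotated gene.

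Of 21 genes best known from other discs, some of them also used in the wing disc, 9 were detected (42.9%). This lies between the 42% of all gene IDs and the 52.1% of protein-coding genes, so the count is not a result about these genes. The eye selectors ey, toy and gl had 39, 27 and 28 reads for ey, 0, 0 and 1 reads for toy, and 0, 0 and 0 reads for gl, and the proneural gene ato 56, 34 and 56 reads. In contrast, the retinal determination genes eya, so and Optix were detected at 35.1, 34.2 and 29.3 CPM for eya, 20.8, 20.4 and 19.8 CPM for so, and 19.4, 18.9 and 18.1 CPM for Optix. The homeobox gene al had 74.8, 74.6 and 68.6 CPM, the antennal and leg genes ss and dac 59.8, 55.6 and 56.3 CPM for ss and 44.4, 44.8 and 41.3 CPM for dac, and bab2 85.9, 81.8 and 76.04 CPM beside its paralog bab1 at 1.78, 1.47 and 1.68 CPM. Of 5 genes of the genital disc 2 were detected (40%), near the share of all gene IDs and under that of protein-coding genes. These were dsx and the Pax gene Poxn (12.4, 13.7 and 12.7 CPM), while cad and eve had 1, 0 and 4 reads for cad and 0, 0 and 0 reads for eve.

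Among signals, 26 of 28 Wnt pathway genes were detected. wg had 122, 120.5 and 112 CPM, Wnt6, its neighbour in the genome, 38.02, 37.8 and 34.1 CPM, Wnt4 24.8, 25.2 and 19.7 CPM and Wnt2 61.4, 64.6 and 53.7 CPM, each lowest in replicate 3. Wnt5, known from axon guidance, had 149, 143 and 146 CPM, Wnt10 passed 1 CPM in 2 of the 3 libraries (1.25, 0.846 and 1.10 CPM), and wntD had no read. Of the receptors, fz2 had 902, 856 and 851 CPM, the co-receptor gene arr 481, 466 and 473 CPM, fz 213, 211 and 213 CPM, fz4 86.6, 85.8 and 86.05 CPM and fz3 63.7, 65.01 and 63.01 CPM. The glypican genes dally and dlp had 457 ± 12.97 and 200.5 ± 4.97 CPM, the secreted deacylase gene Notum 59.6, 54.3 and 50.1 CPM and the feedback inhibitor gene nkd 334, 314 and 309 CPM.

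For the TGF-beta family, 23 of 26 genes were detected. Of the ligands, dpp had 89.6, 86.2 and 86.3 CPM, gbb, its partner in the BMP branch, 175, 183 and 181 CPM, mav 181, 170.4 and 170.0 CPM, myo 152, 143 and 144 CPM and daw 8.37, 6.78 and 5.86 CPM, while Actbeta, scw and the extracellular modulator gene tsg had 2, 3 and 6 reads for Actbeta, 0, 0 and 0 reads for scw, and 0, 1 and 1 reads for tsg. Of the receptors, tkv had 572, 539 and 534 CPM, babo 232, 222 and 229 CPM, put 170.2, 169 and 169.7 CPM, wit 106, 103 and 102 CPM and sax 95.5, 93.5 and 95.1 CPM. The repressor gene brk and magu (pentagone), both of which Dpp turns off, had 111, 109 and 113 CPM for brk and 213, 218 and 213 CPM for magu. Dad, which Dpp turns on, had 194, 179 and 182 CPM. Genes of both kinds were read in each of the 3 libraries.

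Every one of 14 Hedgehog pathway genes was detected, with the co-receptor genes ihog and boi at 396, 387 and 392 CPM for ihog and 229, 217 and 225 CPM for boi and smo at 173, 167 and 176 CPM. For Notch, N had 1227, 1186 and 1211 CPM, and its ligand genes Delta and Ser had 427, 399 and 399 CPM for Delta and 419.9, 401 and 394 CPM for Ser. Of 16 Notch target genes of the E(spl) complex and related kinds 14 were detected, E(spl)mbeta-HLH at 98.3, 103 and 87.6 CPM, E(spl)m3-HLH at 60.1, 60.6 and 55.95 CPM, E(spl)mgamma-HLH at 6.94, 6.21 and 5.81 CPM and E(spl)m5-HLH at 1.30, 1.43 and 1.29 CPM. Hey, another target of the same kind, had 0, 0 and 1 reads.

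Of the EGFR ligands, spi had 236, 244 and 215 CPM, the neuregulin-like vn 78.2, 75.4 and 79.2 CPM and Krn 22.1, 21.6 and 20.7 CPM, while the oocyte ligand gene grk averaged 0.382 CPM. Egfr itself had 613, 583 and 583 CPM. The rhomboid paralogs ru and stet averaged 0.733 and 0.176 CPM. FGF ligands and receptors were both present, with ths at 87.1, 83.04 and 88.6 CPM and pyr at 19.9, 18.7 and 19.97 CPM for the receptor gene htl (29.8, 30.4 and 30.6 CPM) of the muscle precursors, and bnl at 7.97, 8.02 and 7.65 CPM for the tracheal receptor gene btl (14.99, 13.8 and 13.5 CPM).

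In the JAK/STAT pathway the ligand gene upd1 was the only one of 3 unpaired genes detected, upd2 and upd3 averaging 0.327 and 0.672 CPM, while the receptor gene dome had 234, 224 and 233 CPM. The tumour necrosis factor gene egr had 9.42, 9.66 and 8.03 CPM and its receptor genes grnd and wgn 124, 120.5 and 124 CPM for grnd and 55.1, 58.00 and 57.6 CPM for wgn. Of insulin-like peptides, Ilp6 had 2.38, 2.54 and 1.87 CPM, Ilp8, the relaxin-like signal of damaged or slow discs, had 3, 2 and 2 reads, and Ilp2, Ilp3 and Ilp5, made by brain cells, had none. Their receptor gene InR had 296, 298 and 278 CPM and the growth regulator Myc 314, 327 and 335 CPM.

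**Figure D3:**
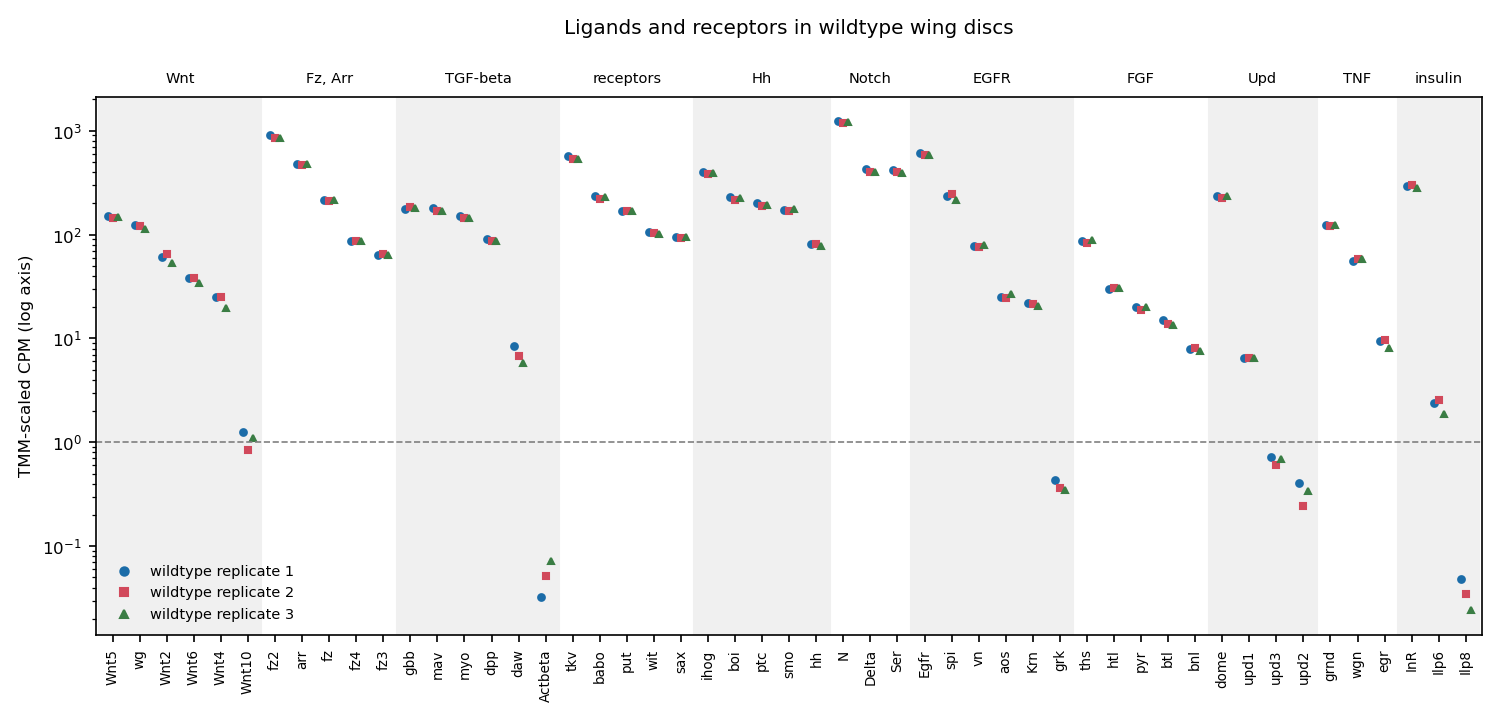
TMM-scaled CPM (log axis) of ligand and receptor genes in each of the 3 wildtype libraries, grouped by pathway; the dashed line marks 1 CPM. N, fz2, Egfr and tkv lie between 534 CPM (tkv, replicate 3) and 1227 CPM (N, replicate 1), and grk, Actbeta, upd2, upd3 and Ilp8 lie under 1 CPM in every library.

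Growth control genes of the Hippo pathway were detected for 20 of 21 names. The atypical cadherin genes ft and ds had 956, 872 and 951 CPM for ft and 1152, 1062 and 1162 CPM for ds, the upstream gene ex 682, 627 and 671 CPM, the kinase genes hpo and wts 115, 112 and 117 CPM for hpo and 130.2, 126 and 126 CPM for wts and the coactivator gene yki 84.7, 83.7 and 83.4 CPM. The microRNA gene mir-ban had no read, while lncRNA:CR43334, whose span contains it, had 29.9, 47.2 and 30.5 CPM. All 10 planar polarity genes were detected, with stan at 341, 312 and 319 CPM and mwh, which acts when wing hairs form in the pupa, at 5.48, 5.80 and 6.57 CPM.

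All 33 cell cycle genes were detected. The mitotic kinase gene polo had 427, 424 and 452 CPM, CycB 353, 346 and 372 CPM, CycA 322, 314 and 330.1 CPM, the replication clamp gene PCNA 243, 250.0 and 260.4 CPM and stg, the Cdc25 phosphatase that sets the pace of disc cell cycles, 165, 159.9 and 179.5 CPM. The meiotic Cdc25 gene twe had 8.28, 9.04 and 9.71 CPM and overlaps another gene. In 29 of the 33 genes replicate 3 was the highest library, although the summed level of the list differed by only 1.07-fold between libraries. Replicate 3 was the highest library in 31.7% of all genes that averaged 5 CPM or more.

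Cell death and stress genes were detected for 30 of 34 names. The pro-apoptotic gene hid had 178, 177 and 146 CPM and rpr 9.69, 9.91 and 8.88 CPM, while grim and skl had 2, 0 and 1 reads for grim and 1, 3 and 2 reads for skl. The inhibitor gene Diap1 had 406, 398 and 373 CPM. Of heat shock genes, the constitutive Hsc70-4 and Hsp83 were among the most abundant genes, the small heat shock genes Hsp23 and Hsp27 had 2070.1, 2296 and 1906 CPM for Hsp23 and 1873, 2042 and 1629 CPM for Hsp27, Hsp68 had 7.62, 8.58 and 7.90 CPM and Hsp22 had no read. Hsp26 and Hsp27 were lowest in replicate 3, as was Hsp23. The JNK phosphatase gene puc had 43.7, 41.3 and 39.9 CPM, the matrix metalloproteinase gene Mmp1 118, 116 and 97.4 CPM and the stress-response factor gene Xrp1 533, 501 and 533 CPM.

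Epithelial and matrix genes were detected for 28 of 28 adhesion, junction and polarity names and 16 of 17 matrix names. E-cadherin (shg) had 779, 730.5 and 739.6 CPM, its partner gene arm 1291, 1315 and 1276 CPM, the apical determinant gene crb 529.7, 492 and 506 CPM, and the septate junction genes cora and Nrx-IV 633, 605 and 645 CPM for cora and 627, 599.7 and 608 CPM for Nrx-IV. The basement membrane laminin gene LanA had 1172, 1059 and 1119 CPM and the apical matrix gene dpy 658, 569 and 708 CPM, while the collagen IV genes Col4a1 and vkg, whose proteins reach the disc mainly from the fat body, had 101, 81.3 and 112 CPM for Col4a1 and 64.5, 52.5 and 74.3 CPM for vkg. Nidogen (Ndg) averaged 0.143 CPM. All 22 Polycomb and trithorax group genes were detected, from esc (20.6 CPM) to the remodeller gene kis (1462 CPM).

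Cells other than disc epithelium were represented unevenly. Adult muscle precursors showed through twi at 29.9, 31.1 and 29.5 CPM, Mef2 at 82.7, 80.5 and 82.00 CPM, Him at 17.5, 18.7 and 16.2 CPM and htl. Of their 15 names 13 were detected (86.7%, against 42% of all gene IDs and 52.1% of protein-coding genes). Among them the muscle actin gene Act57B differed by 1.54-fold and was lowest in replicate 3 (35.2, 37.5 and 24.3 CPM). The genes Hand and lmd, which belong to heart and to fusing myoblasts, had 0, 0 and 1 reads for Hand and 7, 5 and 6 reads for lmd. All 10 tracheal names were detected, with the tracheal master regulator trh at 85.7, 82.01 and 80.8 CPM and the chitin deacetylase genes serp and verm at 272, 258 and 256 CPM for serp and 509, 475 and 503 CPM for verm. Several tracheal names are also known from the disc epithelium, vvl among them (708, 675 and 679.8 CPM).

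Haemocytes, the blood cells, were represented by 11 of 16 names (68.75%), against 42% of all gene IDs and 52.1% of protein-coding genes. Hml had 25.1, 12.7 and 20.2 CPM, the peroxidasin gene Pxn 30.2, 15.4 and 19.6 CPM, the scavenger receptor gene eater 10.7, 5.50 and 6.27 CPM, the GATA factor gene srp 4.61, 3.50 and 2.92 CPM, and the prophenoloxidase genes PPO1 and PPO2, products of crystal cells, 29.01, 12.6 and 14.2 CPM for PPO1 and 41.9, 14.1 and 18.8 CPM for PPO2. NimC1 had 1.30, 0.690 and 0.471 CPM and NimC4 no read. Of the 15 haemocyte names with a read, 10 were highest in replicate 1, 2 in replicate 2 (Ppn and lz) and 3 in replicate 3 (the collagen IV genes Col4a1 and vkg, and atilla).

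Fat body storage protein genes were found at low levels, Lsp2 at 13.3, 8.80 and 4.88 CPM, Lsp1beta at 8.85, 5.71 and 2.92 CPM, Fbp1 at 19.9, 14.01 and 6.49 CPM and Fbp2 at 8.68, 5.71 and 2.96 CPM. Each was highest in replicate 1 and lowest in replicate 3, and Adh had no read. Of 10 salivary gland glue genes 3 were detected (30%, against 42% of all gene IDs and 52.1% of protein-coding genes). By mean level, 5 lay from 1 to 10 CPM, 3 lay under 1 CPM and 2 had no read. Sgs7 had 3.21, 3.05 and 2.96 CPM and Sgs3 1.46, 1.12 and 0.809 CPM. In differentiated muscle, Mhc had 1.24, 1.71 and 1.68 CPM and Mlc2 9.50, 9.63 and 8.75 CPM. Among neuronal genes elav had 40.9, 37.1 and 38.01 CPM and overlaps other genes, while the synaptic genes nSyb and brp averaged 0.0602 and 0.230 CPM and the glial gene repo 0.230 CPM. The sensory organ precursor gene ase had 2.41, 2.50 and 1.78 CPM.

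**Figure D4:**
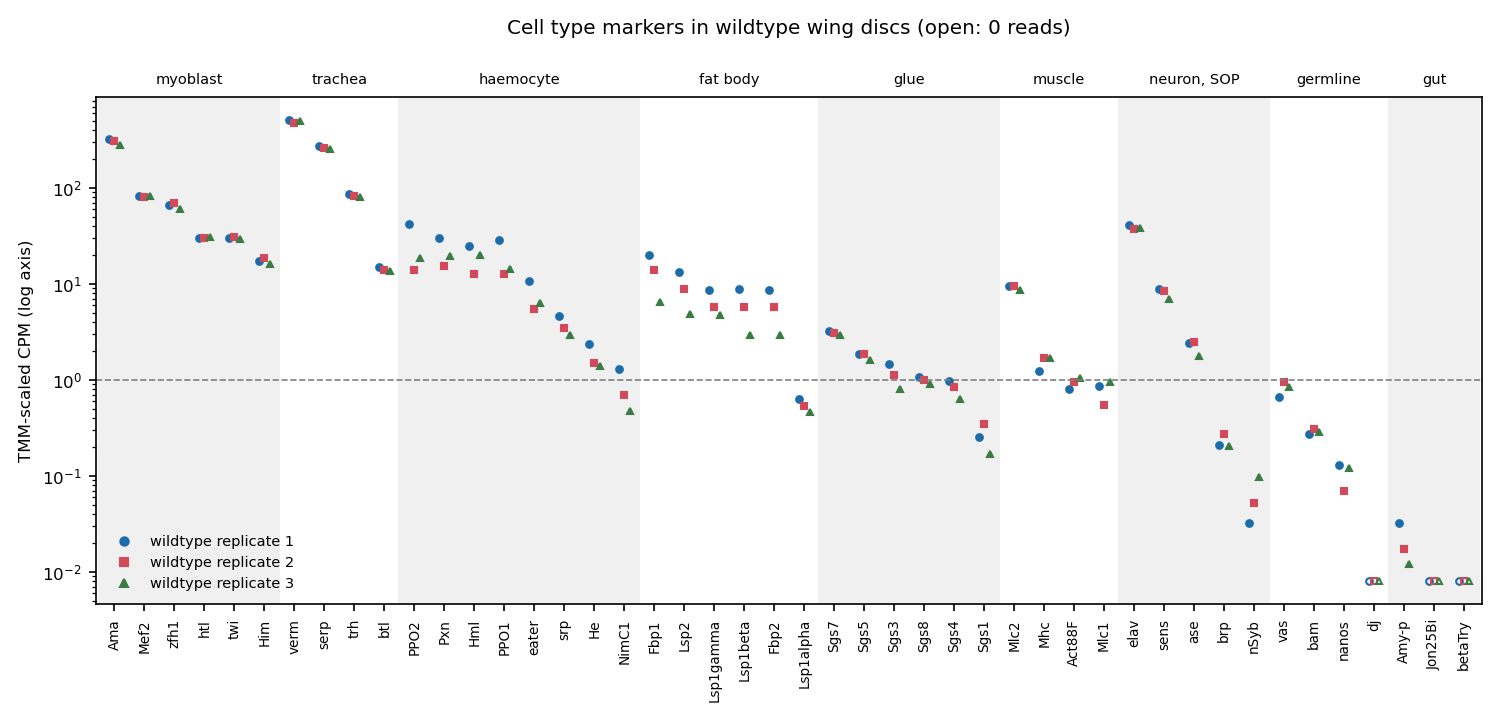
TMM-scaled CPM (log axis) of markers of cell types other than disc epithelium in each of the 3 wildtype libraries; open symbols at the bottom stand for 0 reads and the dashed line for 1 CPM. The muscle precursor and tracheal markers drawn differ by at most 1.17-fold between libraries, whereas Hml, Pxn, eater, PPO1 and PPO2 are highest in replicate 1 and Lsp2, Lsp1beta, Fbp1 and Fbp2 are highest in replicate 1 and lowest in replicate 3.

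Of genes that respond to ecdysone or mark the stage, 28 of 35 were detected. The receptor genes EcR and usp had 176, 167 and 193 CPM for EcR and 81.1, 81.6 and 81.7 CPM for usp. The early genes br, Eip75B and Eip74EF had 2863, 2851 and 2674 CPM for br, 460.5, 473 and 398 CPM for Eip75B, and 134, 129 and 136 CPM for Eip74EF, and the disc genes ImpE1 and ImpE3 864, 880.4 and 622 CPM for ImpE1 and 109, 139.9 and 94.1 CPM for ImpE3. The prepupal genes ftz-f1 and Hr3 had 8.81, 9.11 and 17.02 CPM for ftz-f1 and 3.42, 1.92 and 2.33 CPM for Hr3. The adult specifier gene Eip93F averaged 0.744 CPM. The pupal cuticle genes Edg78E and Edg84A had 6, 12 and 17 reads for Edg78E and 0, 0 and 0 reads for Edg84A. chinmo, a gene of young larval tissue, had 19.2, 19.6 and 33.3 CPM.

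Sex determination genes were present, with Sxl at 314, 344 and 345 CPM, tra at 18.6, 20.4 and 21.2 CPM and dsx at 85.3, 90.2 and 97.9 CPM. The male dosage compensation genes msl-2 and lncRNA:roX2 had 71.6, 49.2 and 45.6 CPM for msl-2 and 16.8, 6.68 and 5.71 CPM for lncRNA:roX2, and 7 of 10 Y-linked genes listed had no read, the highest being FDY at 0.418, 0.483 and 0.459 CPM. The pigmentation gene y had 7, 7 and 10 reads and the eye pigment transporter gene w 4, 1 and 1 reads, and levels this low check neither allele of the strain.

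The 3 libraries were close to each other. Over the 6754 genes that averaged 5 CPM or more, the ratio of the highest to the lowest library had a median of 1.06, and 90% of the genes stayed under 1.15. The biological coefficient of variation that edgeR estimated was 5.02%. Between pairs of libraries the chi-square of the counts was 15.6 to 17.7 per degree of freedom, above counting noise, so none was the same library deposited again. This does not show whether they came from separate RNA samples.

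At least 1.5-fold between the highest and the lowest library was reached by 62 of the 6754 genes, 0.918%, and at least 2-fold by 13. The ratio was 1.51 for Idgf6, just inside the limit, and 1.49 for CG15080, just outside it. Replicate 3 was the odd library and low in 22 of them (0.326% of the 6754) and high in 11 (0.163%). Replicate 1 was high in 16 (0.237%) and low in 4 (0.0592%), and replicate 2 high in 4 (0.0592%) and low in 5 (0.074%). Without replicate 1, 2 or 3 the count was 28, 37 or 25 genes. Of the 62 genes, 30 overlap another annotated gene.

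Of 44 lists with a member at 5 CPM or more, 10 had a varying member. With only 0.918% of all genes varying, the absence of such members from a list is not a result about its genes. The lists with more than 1 were haemocytes, fat body, ecdysone response, sex and dosage compensation, and abundant non-coding RNA, whose varying members are the roX RNAs of the sex list.

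The largest ratio among the 6754 genes that averaged 5 CPM or more was that of Syt4, which encodes a synaptotagmin, a calcium-sensor protein of vesicle traffic (FBgn0028400; dm6 3R, 7266065 to 7270809). It had 6, 1516 and 2517 reads, or 0.0964, 26.2 and 30.4 CPM, a ratio of 315 between the highest and the lowest library, whereas the next largest among these genes, that of lncRNA:roX1, was 3.11. Replicate 1 lay far below the other two libraries, which were close to each other. The span of Syt4 overlaps no other annotated gene. The flanking genes were at like levels in all 3 libraries, where Gld, 362 bases away, had 32.6, 34.4 and 28.9 CPM and rn, 1808 bases away on the other side, 269, 252 and 263 CPM. Without replicate 1 the ratio of the other two libraries was 1.16.

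The roX RNAs, which coat the male X chromosome with the MSL complex, were highest in replicate 1. lncRNA:roX1 had 809, 291 and 260.0 CPM and lncRNA:roX2 16.8, 6.68 and 5.71 CPM. The gene msl-2 had 71.6, 49.2 and 45.6 CPM, which are RNA levels, while it is the protein, the limiting subunit, that is made in males. Sxl, in contrast, was lowest in replicate 1 (314, 344 and 345 CPM). Both roX genes and msl-2 were highest in replicate 1 and lowest in replicate 3. Without replicate 1 the means were 275 CPM for roX1, 6.18 CPM for roX2 and, for CR6900 below, 10.8 CPM. The other subunit genes differed less, mle with 155, 149 and 152 CPM, msl-1 with 102, 95.5 and 98.7 CPM, mof with 44.9, 38.5 and 39.2 CPM and msl-3 with 39.8, 36.5 and 38.2 CPM. Among 1152 X-linked protein-coding genes with at least 5 CPM the median log2 difference of replicate 1 from the mean of the others was -0.03, against 0.00 on chromosome arm 2L (1161 genes) and 0.05 on chromosome 4 (55 genes). In the sex list 4 of 12 members with at least 5 CPM varied (roX1, roX2, msl-2 and fru), against 0.918% of all, and 1 varied without replicate 1, 3 without replicate 2 and 2 without replicate 3. Also high in replicate 1 were the pseudogene CR6900 (28.6, 11.2 and 10.4 CPM), which overlaps CG6961, and the X-linked gene fend (40.9, 20.2 and 18.99 CPM). Whether the sex of the larvae differed between libraries was not tested.

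Among haemocyte markers 5 of 9 members with at least 5 CPM varied, against 0.918%, namely PPO2, PPO1, Hml, Pxn and eater, with ratios of 2.97, 2.30, 1.97, 1.96 and 1.94. Replicate 1 was highest in all 5 and replicate 2 lowest. Without replicate 1 the mean of PPO2 was 16.4 CPM. The number of varying members was 1 without replicate 1, 4 without replicate 2 and 5 without replicate 3. The other 4 members stayed under 1.5-fold and did not share 1 highest library. Papilin (Ppn) was highest in replicate 2 (1008, 1036 and 869.9 CPM) and the scavenger receptor gene crq, which overlaps ex, in replicate 1 (46.5, 43.2 and 44.3 CPM), while Col4a1 (101, 81.3 and 112 CPM) and vkg (64.5, 52.5 and 74.3 CPM) were highest in replicate 3. The list's summed level was 1368, 1282 and 1186 CPM, mostly from Ppn.

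Among fat body genes 5 of 6 members with at least 5 CPM varied, against 0.918% of all genes, namely Fbp1, Lsp1beta, Fbp2, Lsp2 and Lsp1gamma, with ratios of 3.06, 3.03, 2.93, 2.73 and 1.84. Replicate 1 was highest and replicate 3 lowest in all 5. Without replicate 1, 2 or 3 the number was 2, 5 or 4. The sixth member, the lipid transfer gene Mtp, was level at 74.9, 75.1 and 73.3 CPM. Also highest in replicate 1 and lowest in replicate 3 were fat-spondin (15.8, 10.5 and 8.66 CPM), the glutamine synthetase gene Gs1 (11.8, 9.47 and 6.54 CPM) and the beta-galactosidase gene Gal (12.9, 9.65 and 6.66 CPM). Of these, fat-spondin and Gs1 were named after their values were seen. This order is not particular to fat body genes, as lncRNA:roX1, lncRNA:roX2, msl-2, CR6900, fend and Cpr65Ec had it too. How far fat body and blood cells left on the discs set the values of the fat body and haemocyte genes was not tested.

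Of ecdysone response and staging genes 6 of 25 varied, against 0.918% of all genes, and replicate 3 was the odd library in each. Hr4, Blimp-1, Fbp1 and Cyp18a1 were lower there, Hr4 with 253, 314 and 183 CPM, the transcriptional repressor gene Blimp-1 with 265, 281 and 174 CPM and Cyp18a1, which encodes an enzyme that inactivates ecdysone, with 5.05, 6.49 and 3.59 CPM. ftz-f1 (8.81, 9.11 and 17.02 CPM) and chinmo (19.2, 19.6 and 33.3 CPM) were higher there. No member of the list varied without replicate 3, 6 did without replicate 1 and 4 without replicate 2. Fbp1 is a member of the fat body list too.

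Further ecdysone-inducible genes were lowest in replicate 3 at smaller ratios, ImpE1 with 864, 880.4 and 622 CPM (1.42-fold), ImpE2 with 1.34-fold and Eip78C with 127, 135 and 96.97 CPM (1.39-fold). The receptor gene EcR was highest in replicate 3 (176, 167 and 193 CPM), and usp was level (81.1, 81.6 and 81.7 CPM). Replicate 3 was the lowest library for 18 of the 25 genes, against 29.5% of all genes that averaged 5 CPM or more. The median ratio of the list was 1.19, against 1.06 over all genes.

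Among cuticle protein genes, named after their values were seen, the libraries differed in both directions. Of 9 Cpr genes that averaged 5 CPM or more, 5 varied, against 0.918% of all genes. Cpr66D, Cpr51A, Cpr12A and Cpr78E stayed under 1.5-fold, with ratios of 1.06, 1.20, 1.22 and 1.45. Cpr49Ag varied and was lowest in replicate 2 (22.6, 14.5 and 19.1 CPM). Cpr49Ac had 279, 322 and 186 CPM and Cpr65Ec 9.30, 8.58 and 5.78 CPM, both lowest in replicate 3, whereas Cpr64Aa (52.7, 40.95 and 68.00 CPM) and Cpr49Ah (10.03, 9.09 and 14.8 CPM) were highest there. The cuticle-associated genes Vajk2 and Vajk3 were highest in replicate 3 as well (17.6, 19.5 and 28.3 CPM for Vajk2 and 15.1, 15.5 and 30.05 CPM for Vajk3), as were the cytochrome P450 gene Cyp310a1 (32.9, 39.9 and 74.4 CPM), Aldh (8.93, 8.16 and 13.99 CPM) and fru (137, 124 and 196 CPM). Spn100A, a serpin gene, was lowest there (219, 263 and 159.9 CPM), as was the carbonic anhydrase gene CAH2 (6.85, 9.61 and 4.77 CPM). CG7900 was lowest in replicate 1 (5.37, 10.6 and 10.2 CPM).

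**Figure D5:**
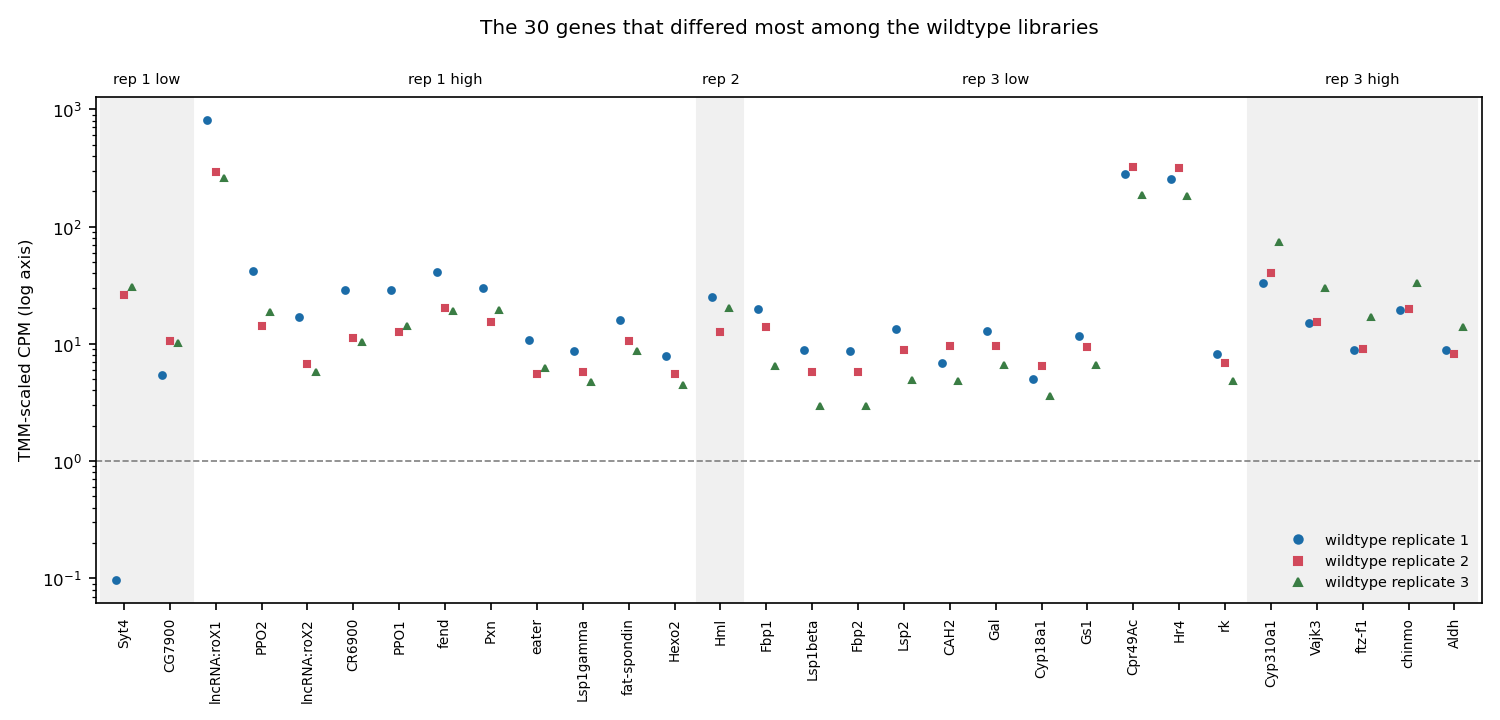
TMM-scaled CPM (log axis) in each of the 3 wildtype libraries for the 30 genes with the largest ratio of highest to lowest library among genes that averaged 5 CPM or more, grouped by the library that stood apart and its direction. Syt4 lies near 0.1 CPM in replicate 1 and near 26 to 30 CPM in the others, and PPO1, PPO2 and the roX RNAs stand high in replicate 1 while Hr4, Fbp1 and Lsp1beta stand low in replicate 3.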

How the data were processed

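The authors deposited raw read counts per gene, with no normalization. Per the labels, total RNA was made into strand-specific libraries. HISAT2 and featureCounts are among the tools named, per the submitters' processing notes, with the build dm6. The sources used here do not give the annotation release, the strand setting or how multi-mapped reads were counted. Only the 3 wildtype columns of the count table were used.

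Of 17807 IDs, 17710 had a symbol in the tables used, and 97, with 0.691% of all reads, had none. Positions come from the RefSeq annotation of Release 6 (17672 IDs matched). CPM are counts divided by TMM-scaled library totals (edgeR 4.0.16, R 4.3.3; genes passing filterByExpr). The coefficient of variation is edgeR's common dispersion with an intercept only. Size factors of DESeq2 1.42.0 were an alternative. Detected means at least 1 CPM in every library, and varying means at least 1.5-fold between the highest and lowest library at a mean of at least 5 CPM. For a gene with no read, 3 counts in the 3 libraries together set the upper limit. This limit and the binomial intervals cover counting error only. No hypothesis test was made. The calculations were also run on simulated counts, set to a smaller spread between libraries than the 5.02% estimated here. That run therefore does not give the rate of false calls at 1.5-fold in these data.

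The members and the 48 gene lists were chosen with earlier results of these data known. The genes named were taken from list members, the 20 most abundant genes, the 20 first by CPM per kilobase of span and the 20 with the largest ratio between libraries. Exon lengths and sequences were not used here, so the ranking per kilobase of exon was replaced by gene span. For long lists only some members are named. The Cpr genes, Vajk2, Aldh, fat-spondin, Gs1, Spn100A, Gld, Idgf6, CG15080 and lncRNA:CR43334 were named after their values were seen. The list names Med, betaTub60D and zip were not analysed here.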

Additional observations from a re-analysis of the deposited data

How the results depend on the processing

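The count of detected genes stayed within 1.5 times under every alternative run, from 6707 at a limit of 5 CPM to 8685 at 10 reads in every library, and from 7481 to 7483 with library totals, DESeq2 size factors or the upper quartile. The share of reads of the 100 most abundant genes, 26.2%, was 25.9 to 26.4% with 1 library left out, 23.6% with non-coding and mitochondrial genes left out of the totals and 19.8% when genes were ranked by CPM per kilobase of gene span, an alternative added after seeing the data. The median level of the 883 named genes was 74.4 CPM, 74.1 to 74.8 CPM with 1 library left out and 84.6 CPM with the 20 most abundant genes left out of the totals, which raises every level alike. Of the single genes, 0 of 883 moved by more than the SD of the libraries with the other scalings, and 2, 18 and 4 did without replicate 1, 2 and 3. At a fixed scaling, leaving out 1 library cannot move a mean of 3 by more than their SD. The counts without 1 library therefore do not measure how far levels rest on that library. The number of varying genes, 62, was 172 at a mean of at least 1 CPM, 23 at 20 CPM, 2230 with no filter on genes with a read in every library, 13 at 2-fold and 25 to 37 with 1 library left out, where fewer libraries make a smaller range. It was 62 or 63 with the other scalings. The coefficient of variation, 5.02%, was 5.22% with no filter, 4.98% at a mean of at least 5 CPM and 4.65 to 5.196% with 1 library left out. Without replicate 1 the mean fell by over 1.5 times for roX1, roX2, PPO2 and CR6900, to 275, 6.18, 16.4 and 10.8 CPM. Ranking by CPM per kilobase of exon was not run. Genes under about 1 CPM rest on fewer than 57.9 to 82.8 reads a library, and ratios between libraries are not read there. No paired analysis was possible because only 1 group was analysed.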

Other observations

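Chromosome 4, the small heterochromatic autosome, had the largest share of its protein-coding genes detected, 59 of 79 (74.7%), against 57.5% on the X, 48.3% on 2L, 51.4% on 2R, 52.3% on 3L and 52.0% on 3R. The median level of its detected genes was 186 CPM, and that of the arms 45.2 to 52.9 CPM, values that are not divided by length. None of 24 protein-coding genes of the Y passed 1 CPM in every library.

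Of the 97 gene IDs with no symbol in the tables used, 46 were detected and the set held 0.706, 0.682 and 0.685% of the reads.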
